A study of Mus musculus with 23 samples.

Results

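The genes examined here are 9 genes of the neutrophil promyelocyte: myeloperoxidase (Mpo), neutrophil elastase (Elane), proteinase 3 (Prtn3), cathepsin G (Ctsg), the serine protease Prss57, the membrane protein Ms4a3, ficolin B (Fcnb), and the transcription factors Gfi1 and Cebpe. They were found by gene symbol in the TPM table, where all 9 of 9 were present among 17644 genes, and were matched by gene ID to the count table of 67228 entries. All 9 also passed the filter on low counts that left 14364 genes for testing. RNA-Seq had been performed on marrow-depleted femur and tibia of 1 hind limb, with 1 library per female C57BL6/N mouse at 11 weeks of age. The groups were WT Control (n = 5) and WT T1D (n = 6), and mice labelled Sarm1-KO as Control (KO Control, n = 6) or with T1D (KO T1D, n = 6). Diabetes followed repeated i.p. doses of streptozotocin (100 mg/kg each) and had lasted 3 weeks, while Control mice had received saline. The knockout was global and not limited to a cell type, and per the study's methods WT mice were in part littermates and in part purchased animals.

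Neutrophils develop in the marrow from granulocyte-monocyte progenitors through promyelocytes, myelocytes, and later forms. Primary (azurophil) granules are filled at the promyelocyte stage, when transcripts of their enzymes are abundant, and these transcripts are shut off before the cell matures. RNA for Mpo, Elane, Prtn3, and Ctsg in a bone sample therefore reports on immature granulocytes in the marrow that stays with the bone, rather than on bone-forming cells. In bulk tissue, fewer cells of a type and less RNA per cell cannot be told apart.

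The libraries held 16938101 to 20135592 counts each. The targeted gene, Sarm1, had 15 to 32 counts per WT Control library and 6 to 21 per WT T1D library. KO Control libraries had 5 to 29 counts and KO T1D libraries 15 to 28. The mean was lower in KO than in WT mice among Controls (14.7 and 21.2 counts) and higher among T1D mice (22.3 and 12.2 counts), with ranges that overlapped in both, so counts this low did not check the labels. Bone was present by its defining genes, with Col1a1, the main collagen of bone, at 6976 TPM or more in every mouse outside WT T1D, and hemoglobin transcripts took 8.01 to 21.4% of counts per library. WT T1D mice A3905 and A3906 stood apart, with Col1a1 down to 403 TPM in that group, and the members' values without them are given with the WT T1D comparisons.

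Promyelocyte genes were among the abundant transcripts of these bones. On the length-corrected TPM scale, averaged over 23 mice, the order of levels began with Elane at 2117 TPM and Mpo at 1763.99 TPM, the enzyme that makes hypochlorous acid from hydrogen peroxide. Elane was the higher of the pair in 21 of 23 mice. Prtn3, a serine protease closely related to elastase, followed at 647 TPM. Fcnb, a lectin that recognizes microbial sugars, had 319 TPM, and Ctsg, a chymotrypsin-like protease, had 290 TPM. Fcnb was above Ctsg in only 16 of 23 mice, so these neighbours in the order overlapped. Ms4a3, a marker of the granulocyte-monocyte lineage, had 153 TPM, and Cebpe, which directs the passage from promyelocyte to myelocyte, had 120 TPM. Prss57, which encodes neutrophil serine protease 4, was much lower at 17.1 TPM, next to Gfi1, a zinc finger repressor needed for neutrophil formation, at 14.4 TPM. Together the 9 genes took 0.422 to 0.698% of all counts in WT Control mice and 0.542 to 0.632% in WT T1D mice. Among mice labelled KO, this share was 0.429 to 0.644% without T1D and 0.441 to 0.785% with it.

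Of these genes, 3 lie together on chromosome 10. On GRCm38.p6, Prtn3 (chr10:79879667-79883174) ends 3.14 kb before Elane (chr10:79886312-79888216), and Prss57 (chr10:79781474-79794684) ends 85.0 kb before Prtn3. Ctsg (chr14:56099885-56102574) and Cebpe (chr14:54710363-54712174) are 1.39 Mb apart. Mpo (chr11:87793784-87804412) is on the chromosome of Sarm1, 9.3 Mb beyond its end. Promoters of 4 members, Mpo, Elane, Prtn3, and Ctsg, are shown as examples. They were not the members that varied most closely together, as Ctsg and Ms4a3 had the highest r (0.90) and Elane and Prtn3 had 0.68. A link between promoter letters and levels was not tested. Each runs from 250 bases before to 50 bases after the RefSeq start on GRCm38.p6, 5′ to 3′ on the gene's strand (plus for Mpo at chr11:87793534-87793833, Elane at chr10:79886062-79886361, and Prtn3 at chr10:79879417-79879716, minus for Ctsg at chr14:56102525-56102824). Capitals mark matches, on either strand, to the ETS-type letters GGAAGT, to their longer PU.1-type form GAGGAAGT, and to the MYB-type letters CAACNG.
Mpo: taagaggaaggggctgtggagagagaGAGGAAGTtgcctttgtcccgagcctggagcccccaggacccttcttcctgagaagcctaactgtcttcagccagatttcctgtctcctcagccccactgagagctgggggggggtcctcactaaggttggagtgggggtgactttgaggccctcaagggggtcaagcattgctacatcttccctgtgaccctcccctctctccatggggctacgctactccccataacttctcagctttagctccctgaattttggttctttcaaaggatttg
Elane: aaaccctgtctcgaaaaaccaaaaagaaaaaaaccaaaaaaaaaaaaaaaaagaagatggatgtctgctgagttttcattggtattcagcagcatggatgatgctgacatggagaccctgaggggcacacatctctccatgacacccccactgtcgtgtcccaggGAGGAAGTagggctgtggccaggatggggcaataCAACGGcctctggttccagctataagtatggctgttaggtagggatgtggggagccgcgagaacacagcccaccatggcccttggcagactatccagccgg
Prtn3: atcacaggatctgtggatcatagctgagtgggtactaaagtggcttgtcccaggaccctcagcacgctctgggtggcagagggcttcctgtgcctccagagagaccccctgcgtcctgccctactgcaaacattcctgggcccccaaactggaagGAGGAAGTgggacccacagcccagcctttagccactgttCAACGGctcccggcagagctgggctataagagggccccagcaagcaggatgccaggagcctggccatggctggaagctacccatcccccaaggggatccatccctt
Ctsg: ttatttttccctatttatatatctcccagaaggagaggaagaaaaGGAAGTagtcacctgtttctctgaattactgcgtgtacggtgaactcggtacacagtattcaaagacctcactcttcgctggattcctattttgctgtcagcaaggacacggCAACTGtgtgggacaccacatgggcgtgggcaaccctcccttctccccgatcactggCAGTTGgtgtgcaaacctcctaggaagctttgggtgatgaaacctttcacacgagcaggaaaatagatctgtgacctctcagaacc

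RefSeq promoters were matched for 7 of 9 members (Mpo, Elane, Prtn3, Ctsg, Ms4a3, Fcnb, and Gfi1). GGAAGT was present in 6 of these 7, all but Gfi1, and in 23.8% of all 32851 promoters of the same length. The form GAGGAAGT, of which GGAAGT is a part, was present in the promoters of Mpo, Elane, and Prtn3, and in 3.2% of all promoters. CAACNG was present for Elane, Prtn3, Ctsg, and Fcnb, and in 35% of all promoters. In Elane and Prtn3 the letters stood in like places. Counted with the start base as 0, GAGGAAGT began at -85 in Elane and at -95 in Prtn3, and CAACGG began at -51 and at -56. A C/EBP-type pattern, TTNNGNAA, was found for Ms4a3, Fcnb, and Gfi1, and in 40.7% of all promoters. These letters were chosen after the sequences had been seen, and a match is only a description.

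To ask whether promyelocyte transcripts changed with T1D in WT bone, WT T1D was compared with WT Control. None of the 9 genes passed the threshold (edgeR quasi-likelihood test, Benjamini-Hochberg adjusted p under 0.05), against 2.33% of all 14364 genes tested, or 334 genes. That number was 0 without A3767 or without A3907 and up to 1264 without other mice, with no member called in any of these fits. None of the 9 had an unadjusted p under 0.05, against 22.2% of all genes, and DESeq2 called none of the 9, against 1002 of 14364 genes. No member had every T1D mouse above every Control mouse, against 1.32% of all genes. The fold changes of 7 of 9 were above zero, against 48.1% of all genes. The members' median was 0.12 on the log2 scale, compared with -0.01 over all genes. Leaving out 1 mouse moved this median from 0.04 (without A3903) and 0.05 (without A3905) to 0.23 (without A3904).

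Mpo in WT Control mice was at 3091 CPM in A1757, 3046 in A3767, 2380 in A3903, 3823 in A3904, and 3130 in A3907, where CPM is the count scaled to library size with TMM. In WT T1D it ranged from 3098 to 3669.7 CPM with a median of 3379. All of the WT T1D mice were within the Control range, above its mean of 3094 ± 511 (SD, n = 5), with a mean of 3366 ± 212 (SD, n = 6). The log2 fold change was 0.12 ± 0.15 (SE, adjusted p = 0.673 in edgeR).

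Elane had the largest estimate in WT bone. Its Control values were 1345 CPM in A1757, 1140 in A3767, 844 in A3903, 1812 in A3904, and 990 in A3907. WT T1D mice had 1323 to 1790 CPM with a median of 1411, all above the Control mean but inside the Control range. The 1.23-fold difference had a 95% confidence interval of 0.938- to 1.62-fold and an adjusted p of 0.359 in edgeR. Its log2 fold change went from 0.30 to 0.17 without A3905 and A3906.

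Prtn3, although it adjoins Elane, had 418, 456, 328, 489, and 408 CPM in the Control mice in the same order, and 351 to 468 CPM with a median of 395 in WT T1D. The groups overlapped fully, with a log2 fold change of -0.03 ± 0.15 (SE, adjusted p = 0.921 in edgeR). The count ratio of Elane to Prtn3 was 2.43 to 3.70 in WT Control (median 2.57) and 3.09 to 4.47 in WT T1D (median 3.67). In KO Control it was 2.71 to 3.21 (median 2.85) and in KO T1D 2.23 to 3.70 (median 3.01). This ratio was chosen after its values were seen and was not tested.

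Cebpe had the lowest adjusted p of the 9 genes in WT bone, at 0.345 in edgeR. It was at 106, 86.9, 76.9, 104, and 90.8 CPM in the Control mice, again in that order, and at 85.6 to 150 CPM with a median of 105 in WT T1D. The highest value was that of A3905, and 3 of 6 WT T1D mice were above every Control mouse, for a log2 fold change of 0.20 ± 0.12 (SE). Among mice with IDs A36 to A39 alone, which leaves out the A17 series, Cebpe was the 1 member called, with a log2 fold change of 0.43 (adjusted p = 0.0436 in edgeR), in a fit that called 15.5% of all genes. In the other direction, its log2 fold change was 0.09 without A3905, 0.04 without both A3905 and A3906, and 0.05 with the erythroid score as a covariate. With that covariate, the members' median was 0.10 with 8 of 9 above zero. The score, a mean log2 CPM of erythroid genes, was at most 10.379 in WT Control and at least 10.381 in WT T1D. Score and T1D can therefore hardly be told apart among WT mice, and this fit called 0 genes of all there. Mpo was at 0.26, Elane at 0.27, and Fcnb at 0.29, while Ms4a3 was at 0.04 and Gfi1 at -0.12.

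The remaining members in WT bone had log2 fold changes between those of Prtn3 and Elane. Fcnb was at 0.19, Ctsg at 0.12, Ms4a3 at 0.08, Gfi1 at 0.07, and Prss57 at -0.02, with adjusted p values from 0.503 to 0.948 in edgeR. Without A3905 and A3906 together, the members' median in WT bone was 0.03 and none was called, while the number of all genes called went from 334 to 0. Hemoglobin transcripts were 9.73 to 13.9% of counts in WT Control and 12.3 to 21.4% in WT T1D, and their part in the members' values was not tested. On the log2 (TPM + 1) scale, all genes shifted by a median of -0.24 in this comparison. All members but Elane were then below zero, with the lowest values for Prtn3 (-0.31) and Prss57 (-0.28). Mpo, Ctsg, Ms4a3, Fcnb, Gfi1, and Cebpe had turned in direction. The members' median of -0.15 was 0.09 above that shift.

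**Figure D1:**
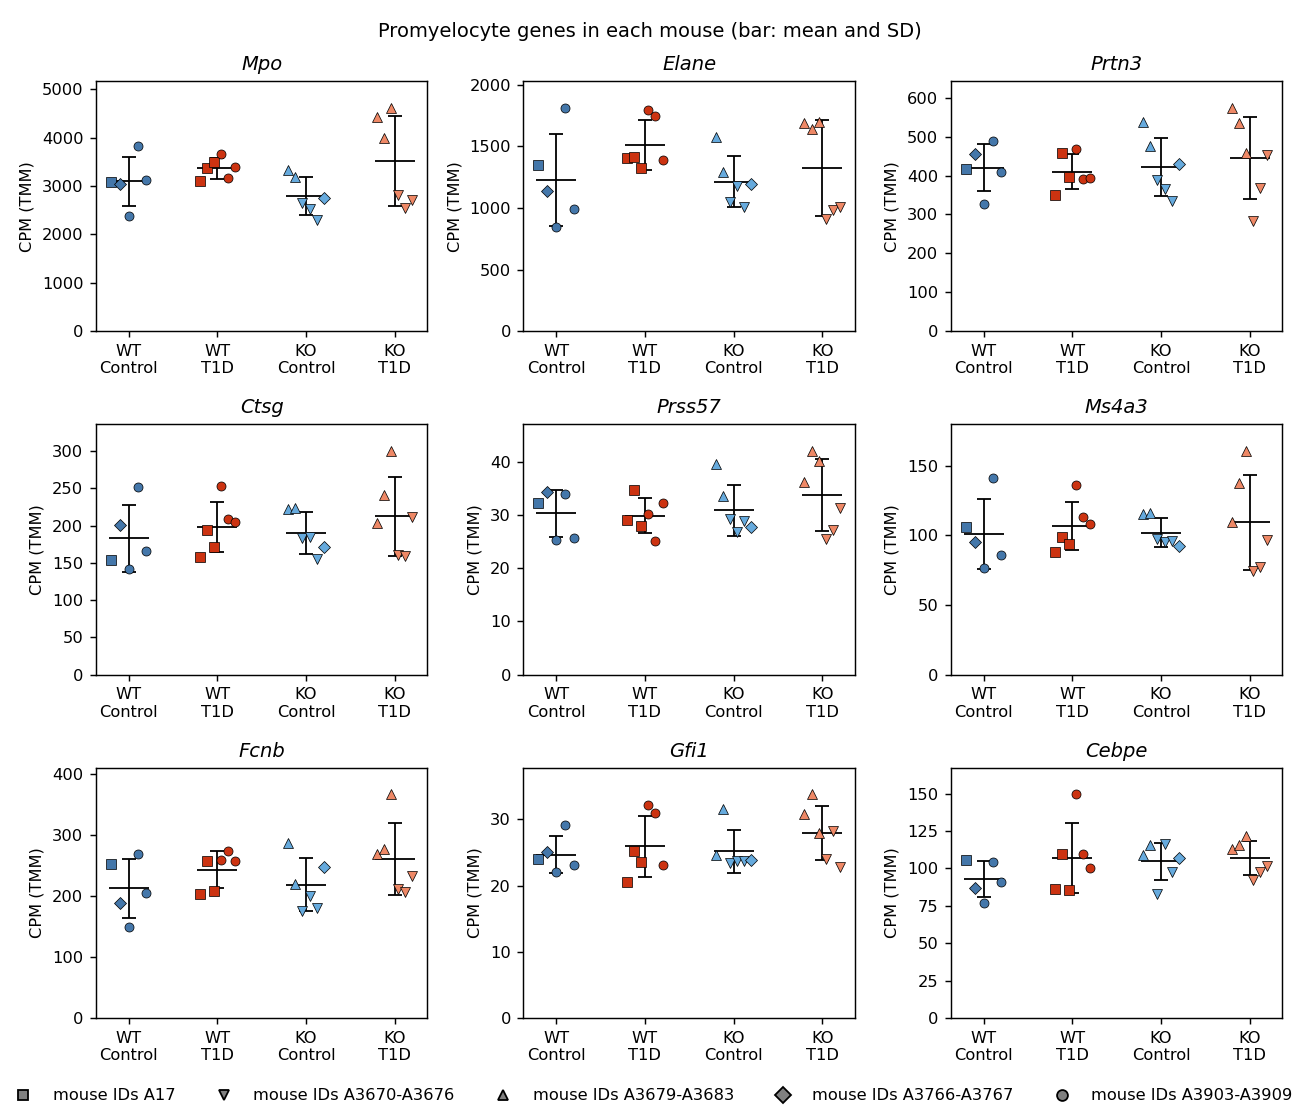
TMM-scaled counts (CPM, linear axis from 0) of each gene in each of 23 mice, by group, with black bars for the mean and SD and symbols for runs of consecutive mouse IDs. All groups overlap for every gene, and in KO T1D the Mpo and Elane values form an upper and a lower trio.

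The same question was asked in mice labelled Sarm1-KO. None of the 9 genes was called between KO T1D and KO Control (lowest adjusted p = 1 in edgeR), in a comparison that called 0% of all genes in edgeR and 0 genes in DESeq2. At an unadjusted p under 0.05 there was 1 member, Mpo, against 3.15% of all genes. No member had every T1D mouse above every Control mouse, against 0.0905% of all genes. All 9 fold changes were above zero, from 0.03 for Cebpe to 0.33 for Mpo, against 49.4% of all genes. The members varied together among mice, as described below, so these are not 9 separate results. The members' median was 0.13 compared with 0.00 over all genes. The median was 0.05 without A3682, 0.07 without A3683 (with 7 of 9 above zero), and 0.21 without the KO Control mouse A3679.

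Mpo was at 2296 to 3327 CPM with a median of 2706 in KO Control, and at 2542 to 4614 CPM with a median of 3408 in KO T1D. In KO T1D, 3 of 6 mice were above every KO Control mouse and the other 3 lay within the Control range. The estimate was 1.26-fold, with a 95% confidence interval of 1.03- to 1.55-fold, an unadjusted p of 0.0283, and an adjusted p of 1 in edgeR. With the runs of mouse IDs as a term, added after the data were seen, its log2 fold change was 0.25 (unadjusted p = 0.0292, adjusted p = 0.999 in edgeR).

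Elane was at 1004 to 1573 CPM with a median of 1184 in KO Control and at 909 to 1697 CPM with a median of 1325 in KO T1D. In KO T1D, 3 of 6 mice were above every Control mouse and 2 were below every Control mouse. The log2 fold change was 0.12 ± 0.18 (SE, adjusted p = 1 in edgeR). Fcnb had the second largest estimate, 0.25 ± 0.15 (SE), with 175 to 287 CPM in KO Control and 206 to 366 CPM in KO T1D. The others ranged from 0.03 for Cebpe through 0.08 for Prtn3, 0.10 for Ms4a3, 0.13 for Prss57, and 0.15 for Gfi1 to 0.16 for Ctsg, all with an adjusted p of 1 in edgeR.

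The values in KO T1D fell into sets that followed the mouse IDs. A3681, A3682, and A3683 were all above A3674, A3675, and A3676 for 7 of 9 members, against 8.51% of all genes. Mpo was at 4429, 3992, and 4614 CPM in A3681, A3682, and A3683, and at 2824, 2542, and 2710 CPM in A3674, A3675, and A3676, a 1.61-fold difference between the trios. For Elane the trios had 1642 to 1697 CPM and 909 to 1009 CPM, a 1.73-fold difference. Cebpe separated the trios by 1.202-fold, and Ctsg and Gfi1 overlapped between them. For Mpo, the KO Control mice of the same runs lay in the same order, at 3327 and 3185 CPM in A3679 and A3680, and at 2658, 2527, and 2296 CPM in A3670, A3672, and A3673. For Cebpe they overlapped. These sets were noticed in the data and the labels do not say what a run of IDs shares.

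Within each run of IDs that held both Control and T1D mice, the T1D change was therefore computed separately. In A3679 to A3683 (2 Control and 3 T1D mice) all 9 genes were higher with T1D, with a median log2 change of 0.15 and 0.42 for Mpo. In A3670 to A3676 (3 and 3 mice) 5 of 9 were higher, with a median of 0.02 and 0.11 for Mpo. Among WT mice, all 9 were higher with T1D in A3903 to A3909 (3 and 3 mice, median 0.24), and 3 of 9 in the A17 series (1 and 3 mice, median -0.06). Elane was 0.43 higher on the log2 scale in A3903 to A3909 and 0.04 higher in the A17 series. These within-run values rest on 3 or fewer mice a group and were not tested. With the runs as a term, the members' median with T1D in KO mice was 0.04 in place of 0.13, and in WT mice 0.12 in both fits.

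**Figure D2:**
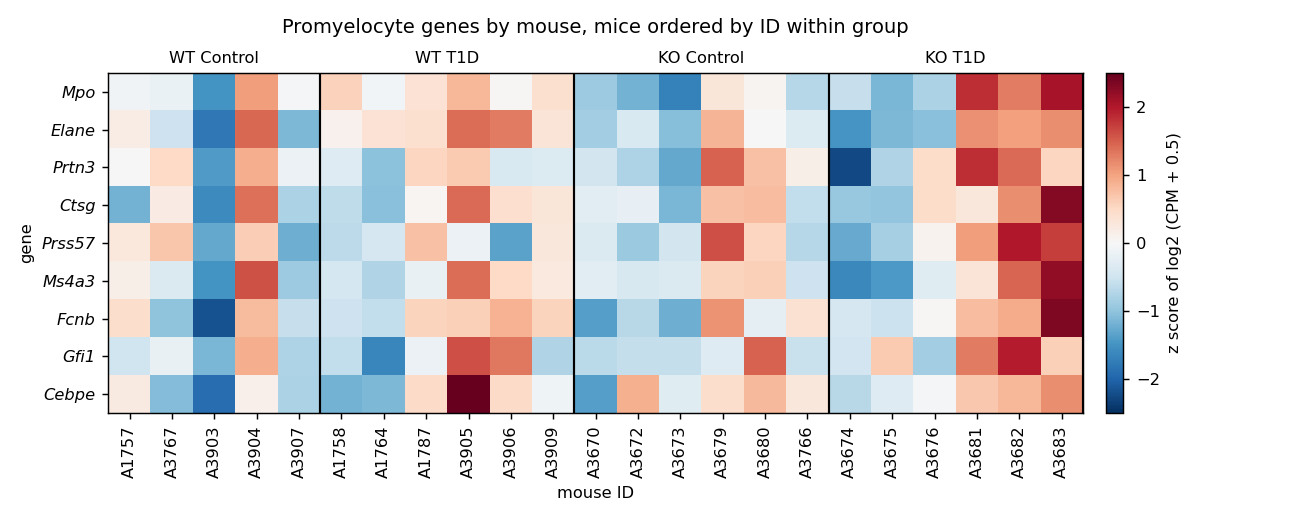
Standard scores (z, over 23 mice) of log2 (CPM + 0.5) for each gene (rows) in each mouse (columns, by group and mouse ID), red above and blue below the gene's mean. Whole columns share a colour: A3903 is blue and A3904 red within WT Control, and A3681 to A3683 are red within KO T1D beside A3674 to A3676, which are mostly blue.

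Whether the T1D change differed between genotypes was tested with the interaction term. None of the 9 genes was called, in a test that called 0% of all genes in edgeR and 0 in DESeq2 by the Wald and the likelihood ratio tests. No member had an unadjusted p under 0.05, against 10.2% of all genes. The difference in log2 fold change, KO minus WT, was largest for Mpo at 0.21 (95% confidence interval -0.21 to 0.64, adjusted p = 0.720 in edgeR) and lowest for Elane at -0.18 (-0.72 to 0.36, adjusted p = 0.830). Cebpe was next at -0.17 (-0.53 to 0.18). Without A3905 and A3906, the interaction was 0.22 for Mpo, -0.05 for Elane, and -0.01 for Cebpe, and the members' median was 0.15 in place of 0.06. These intervals are wide, so genotype differences of that size in either direction were not detectable here. The count ratio of Mpo to Elane, chosen after its values were seen and not tested, had medians of 2.67 and 2.29 in WT mice without and with T1D, and of 2.30 and 2.65 in mice labelled KO.

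**Figure D3:**
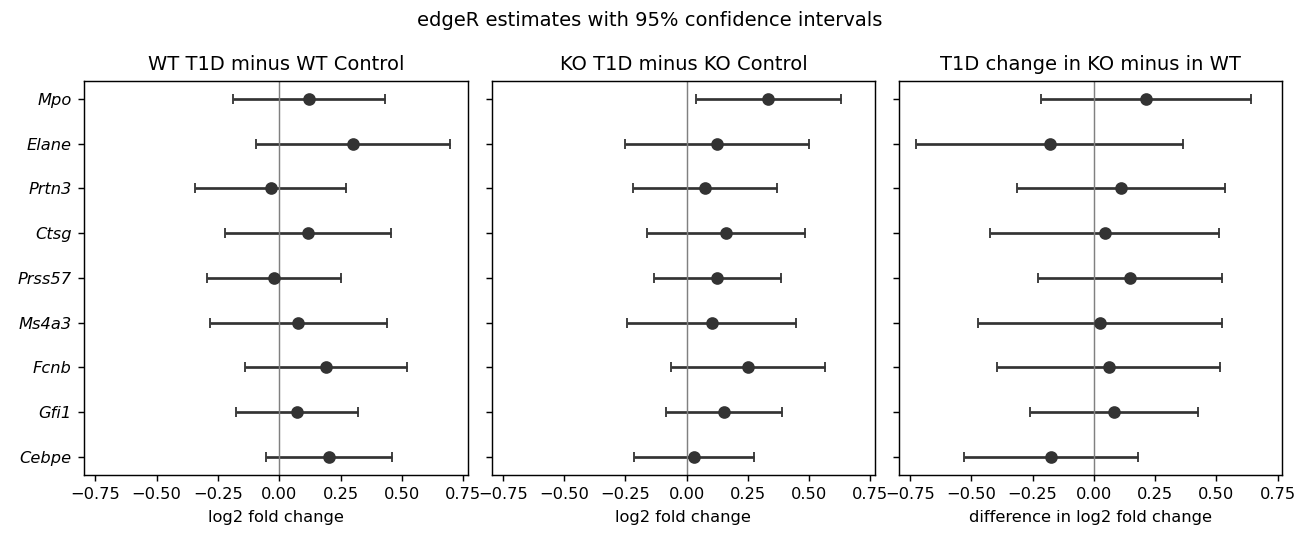
edgeR log2 fold change of T1D over Control in WT mice (left) and in mice labelled KO (middle), and the difference between them (right), with 95% confidence intervals for each gene. Every interval includes 0 except that of Mpo in mice labelled KO, which begins at 0.04.

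Genotypes were also compared directly. Between KO Control and WT Control, none of the 9 genes was called, against 0.0278% of all genes. None had an unadjusted p under 0.05, against 690 of 14364 genes, and none was called by DESeq2, against 4 of 14364. The members ranged from -0.15 for Mpo to 0.17 for Cebpe on the log2 scale, with a median of 0.03. The 4 genes that were called, Vtn, Tlcd2, Xaf1, and Ccdc92b, named after their values were seen, are all on chromosome 11, as are Sarm1 and Mpo. Mpo, at 2791 ± 394 CPM in KO Control (SD, n = 6) and 3094 ± 511 CPM in WT Control (SD, n = 5), had an adjusted p of 0.999 in edgeR. Between KO T1D and WT T1D, none of the 9 was called, against 0.0905% of all genes. Again none had an unadjusted p under 0.05, against 2454 of 14364 genes, and none was called by DESeq2, against 239 of 14364. Estimates ranged from -0.19 for Elane to 0.18 for Prss57, with a median of 0.10. Without A3905 and A3906, that median was 0.16 and Elane was at -0.07. The Mpo values of all 6 KO T1D mice lay outside the WT T1D range, with A3681 to A3683 above it and A3674 to A3676 below it. This was noticed after the values were seen and held for no other member. Its share over all genes was not counted. Runs of mouse IDs held mice of 1 genotype each, apart from A3766 (KO Control) and A3767 (WT Control), so genotype and run otherwise cannot be told apart.

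Although none of the 9 genes was called with T1D by edgeR in all 23 mice, they varied together among mice. Each gene's highest CPM was 1.64 (Gfi1) to 2.45 (Fcnb) times its lowest. Over the 36 pairs of members and 23 mice, Pearson's r of log2 CPM was 0.43 to 0.90 with a median of 0.69, and 0.38 to 0.91 after group means were removed. The highest was that of Ctsg and Ms4a3, and the lowest that of Prss57 and Gfi1. Mice of all groups share the normalization, so these values are descriptions. Among all other genes, those most like the members' mean over 23 mice were Srgn (r = 0.88), the proteoglycan that packs granule proteases, and Cst7 (r = 0.88), a cathepsin inhibitor. Next came Arhgdib (r = 0.87), Trem3 (0.85), Gatm (0.85), Ly6c2 (0.85), Lta4h (0.84), and G6pdx (0.84), which supplies NADPH. The median gene had an r of 0.00.

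Other genes of the pathway were grouped into lists. Of the genes that process, pack, or restrain primary granule proteins, 12 of 14 were tested, with Azu1 not in the TPM table and Bpi under the count filter. With T1D in WT mice 7 of the 12 were above and 5 below zero (median 0.08), and 1 was called, Ctsc. It encodes cathepsin C, the peptidase that activates elastase, proteinase 3, and cathepsin G by removing their N-terminal dipeptide. Ctsc fell by 0.39 ± 0.10 (SE) on the log2 scale (adjusted p = 0.0494 in edgeR), while the members it acts on had estimates from -0.03 to 0.30. That call was lost without A3905 and A3906 (-0.30, adjusted p = 0.321 in edgeR) and with the erythroid score as a covariate (-0.08, adjusted p = 0.998). Each of these fits called 0 of all 14364 genes in WT mice, so no call could be kept there. The call was also lost in 16 of 23 fits that left out 1 mouse (adjusted p from 0.0178 to 0.136). In those 23 fits the estimate stayed at -0.445 to -0.326. In mice labelled KO, Ctsc was at -0.04 (adjusted p = 1 in edgeR), and the difference between genotypes was 0.35 (adjusted p = 0.479). The most abundant genes of this list were Lyz2, Srgn, and Ctsd, and none was called in any comparison. In KO mice 9 of the 12 were above zero and none was called (median 0.04).

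Upstream of the promyelocyte, regulators and receptors of granulocyte-monocyte progenitors were all tested, 20 of 20. None was called with T1D in WT mice (9 above and 11 below zero, median -0.02) or in KO mice (19 above and 1 below, median 0.06). The most abundant of them were Spi1, Csf3r, and Csf2ra. Csf3r was also counted in the list of myelocyte and mature neutrophil genes below, so these lists overlap. Spi1 encodes PU.1, the ETS factor of myeloid cells, and was at 0.27 ± 0.14 (SE) in WT mice (adjusted p = 0.261 in edgeR). Spi1 was at 0.06 without A3905 and A3906 and at 0.05 with the erythroid score. It was called with IDs A36 to A39 only (0.52, adjusted p = 0.0477 in edgeR), in a fit that called 15.5% of all genes. Its r with the members' mean was 0.78, the highest of the list, whose median was 0.28.

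Downstream, the 19 genes of myelocytes and mature neutrophils, such as Ngp, S100a8, and S100a9, the most abundant of them, were far higher, with a summed level of 42210 to 74490 TPM per mouse. The members summed to 4052 to 7628 TPM. With T1D in WT mice 16 of the 19 were above zero and none was called (median 0.19), and S100a9 was at 0.32 ± 0.18 (SE, adjusted p = 0.300 in edgeR). S100a9 was at -0.03 without A3905 and A3906 and at 0.05 with the erythroid score. It was called with IDs A36 to A39 only (0.65, adjusted p = 0.0244 in edgeR), in a fit that called 15.5% of all genes. In KO mice 10 of 19 were above zero (median 0.02). The r with the members' mean had a median of 0.61 over this list, against 0.28 for monocyte genes, 0.14 for erythroid genes, -0.30 for osteoblast and osteocyte genes, and -0.31 for B cell genes.

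With T1D in WT mice, where 2.33% of all genes were called, lists for red cells, dividing cells, and bone-forming cells held called genes. All 13 tested erythroid genes were above zero and 7 were called (median 0.64). Among them were Rhag (0.94) and Hbb-bs (0.89), both with an adjusted p of 0.0367 in edgeR. Hba-a1, the most abundant, was just under the threshold (0.69, adjusted p = 0.0499 in edgeR). The mean log2 CPM of the erythroid genes was 9.84 to 10.4 in WT Control and 10.4 to 11.2 in WT T1D, and none of these markers was at 0. All 10 cell division genes were above zero and 3 were called, Ccnb1, Cdk1, and Aurkb (median 0.36, Ccnb1 at 0.47). Of 12 osteoblast and osteocyte genes 11 were below zero and 2 were called, Ibsp and Runx2 (median -0.74, Ibsp at -0.78). The summed level of that list was 37000 to 76200 TPM in WT Control and 1700 to 49360 TPM in WT T1D. Monocyte, B cell, osteoclast, and eosinophil, basophil and mast cell lists had none called, with medians of -0.10, -0.10, 0.10, and -0.11. In KO mice none of these lists had a called gene. Without A3905 and A3906, a fit that called 0 genes of all in WT mice, Hba-a1 was at 0.46, Ccnb1 at 0.26, and Ibsp at -0.62. Hba-a1, Ccnb1, and Ibsp lost their calls in 19, 16, and 6 of 23 fits that left out 1 mouse. Their estimates in those fits stayed at 0.597 to 0.810, 0.395 to 0.532, and -0.892 to -0.692. The part of these lists in the promyelocyte values was not tested.

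**Figure D4:**
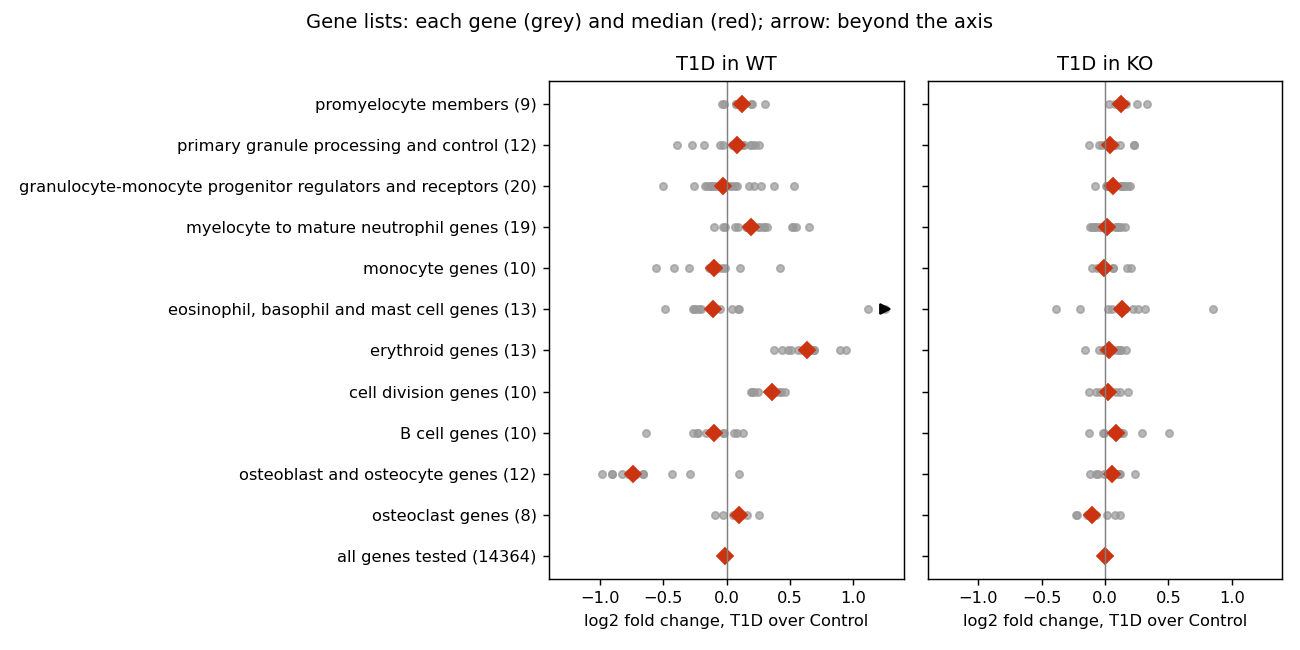
edgeR log2 fold change of T1D over Control for each tested gene (grey points) and the median (red diamonds) of the promyelocyte genes, of 10 other lists, and of all genes tested (median only), in WT mice (left) and mice labelled KO (right), with list sizes in parentheses. The promyelocyte median is 0.12 in WT and 0.13 in KO mice, whereas the erythroid median is 0.64 in WT and 0.03 in KO mice.

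Genes beside the Prtn3 and Elane pair were read in the same libraries. Plppr3, the next gene before Prtn3, had a mean of only 13.3 TPM, and its r with the members' mean was 0.70. Cfd, the complement factor D gene on the other side of Elane, had an r of 0.12. Its log2 fold change was 1.21 in WT mice (adjusted p = 0.0781 in edgeR) and 1.04 in KO mice (adjusted p = 1), and it was not called. Ptbp1, Med16, and R3hdm4 had r values of 0.29, -0.15, and 0.52, and E130317F20Rik had no counts.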

How the data were processed

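Members and gene lists were chosen with earlier results of these data known. The authors deposited unnormalized RSEM expected counts, which they had rounded, and TPM values made by the provider of the sequencing. Both came from stranded oligo dT libraries (DNBSEQ, paired-end 100 bp). SOAPnuke was the read filter, and HISAT and Bowtie2 were the aligners (GRCm38.p6). Totals were 16938101 to 20135592 counts per mouse. In 55 pairs of mice of a group, chi-square per gene was 10.9 to 184, above sampling noise in each pair. That each sample came from its own mouse follows from the mouse IDs in the labels.

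A gene was tested if it had 10 or more counts in 5 or more mice. Counts were scaled with TMM and fitted across 4 groups in edgeR 4.0.16 (R 4.3.3), with an adjusted p under 0.05 as the threshold, 2-sided. Alternatives used DESeq2 1.42.0, limma 3.58.1 on log2 TPM with a pseudocount of 1 or 0.1, other filters and scalings, and subsets of mice. The edgeR fit was also run on simulated counts of independent genes with the same spread for every gene. These held no runs of mouse IDs and no outlying libraries, unlike the data. Text names the 9 members, called genes of each list (up to 5), the 3 most abundant genes of each list, the 8 genes most like the members, and neighbours of Elane. Not all of these are given values. Promoters are from RefSeq.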

Additional observations from a re-analysis of the deposited data

Results flagged for a closer look

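Among 36 sets of values (9 genes in 4 groups), 1 held a mouse that stood apart by Dixon's 95% criterion, which chance meets in about 5% of sets. Gfi1 in KO Control was at 31.6 CPM in A3680, whereas the other 5 mice were at 23.5 to 24.6 CPM. In the same mouse Elane was at 1294 CPM and Mpo at 3185 CPM, within the range of the other KO Control mice.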

How the results depend on the processing

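No paired analysis was possible because the mouse IDs in the labels were not shared between groups. Fold changes of the 9 members with T1D in WT mice, with T1D in KO mice, and for the interaction were computed under 13 alternatives and with each of 23 mice left out. Of 954 such values, 888 kept their direction and their side of the threshold, 65 turned in direction, and 1 became significant. Leaving out a KO mouse hardly moved the T1D change in WT mice (Mpo stayed at 0.121 to 0.132), and the reverse held for WT mice left out. Such values could hardly turn, so the count of 888 overstates how stable the directions were. None of the turned values had an adjusted p under 0.114. Values below are log2 fold changes, and the causes were not tested except where noted. The number of members called was 0 in all 5 comparisons under every alternative except for WT mice with IDs A36 to A39 only, where it was 1, and it was 0 to 0 with each mouse left out.

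With log2 (TPM + 1), and then log2 (TPM + 0.1), changes in WT mice were -0.155 and -0.155 for Mpo, -0.152 and -0.152 for Ctsg, -0.189 and -0.190 for Ms4a3, -0.0713 and -0.0715 for Fcnb, -0.208 and -0.222 for Gfi1, and -0.100 and -0.101 for Cebpe. They were -0.0498 and -0.0498 for Srgn, -0.0931 and -0.0945 for Cst7, -0.0221 and -0.0222 for Spi1, and -0.0271 and -0.0271 for S100a9. The median of all genes was -0.24 and -0.29 there, and the members' medians were 0.09 and 0.14 above it. In KO mice Cebpe was -0.0157 and -0.0158 and Ctsc 0.0661 and 0.0683, and the interaction of Cebpe was 0.0845 and 0.0853. On these scales 5154 and 5172 genes were called in WT mice, against 334 in edgeR and 1002 in DESeq2.

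Without A3905 and A3906 together, changes in WT mice were -0.00884 for Ctsg, 0.0293 for Prss57, -0.0548 for Ms4a3, -0.0963 for Gfi1, and -0.0275 for S100a9. With the erythroid score as a covariate they were 0.0758 for Prtn3, 0.0995 for Prss57, and -0.122 for Gfi1, and the interaction of Fcnb was -0.0254. In both of these fits 0 genes of all were called in WT mice. With IDs A36 to A39 only, Prtn3 in WT mice was 0.00477, and interactions were -0.0835 for Ctsg, -0.176 for Ms4a3, -0.142 for Fcnb, and -0.0786 for Gfi1. With the A17 series as a covariate, interactions were -0.0512 for Ctsg and -0.0214 for Ms4a3.

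With runs of mouse IDs as a term, added after seeing the data, changes were 0.00309 for Prtn3 and 0.00410 for Prss57 in WT mice, and -0.0142 for Ms4a3 in KO mice. The interactions were -0.148 for Ctsg, -0.111 for Ms4a3, and -0.0173 for Gfi1. Prss57 between KO T1D and WT T1D was -0.272, an estimate in which only A3766 and A3767 link the genotypes, as in any genotype comparison with this term.

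With each mouse left out, ranges that crossed zero in WT mice were -0.111 to 0.0263 for Prtn3, -0.0781 to 0.0340 for Prss57, and -0.00794 to 0.231 for Ms4a3. In KO mice they were -0.00940 to 0.172 for Prtn3, -0.0399 to 0.184 for Ms4a3, -0.0295 to 0.0613 for Cebpe, and -0.117 to 0.00850 for Ctsc. For the interaction they were -0.100 to 0.122 for Ctsg, -0.129 to 0.110 for Ms4a3, and -0.0630 to 0.164 for Fcnb. Every member had at least 365 counts in each library.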
